A study of Mus musculus with 7 samples.

Results

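The planar cell polarity core genes of the mouse, Vangl1, Vangl2, Celsr1, Celsr2, Celsr3, Fzd3, Fzd6, Dvl1, Dvl2 and Dvl3, were followed across cochlear supporting cells exposed to inhibitors of histone-modifying enzymes. They were taken by gene symbol after the version suffix of the deposited gene identifiers had been dropped, which found all 10 among 48709 genes. The cells came from cochleae of mice at postnatal day 1, kept for 48 h as organ cultures in a medium with N2, B27, EGF and FGF that all groups shared. Of 7 libraries, 2 came from cultures with DMSO, the solvent control, 3 from cultures with 10 µM GSK-343 and 2 from cultures with 200 nM TSA. GSK-343 inhibits EZH2, the histone H3 lysine methyltransferase of Polycomb repressive complex 2, and TSA (trichostatin A) inhibits histone deacetylases. Supporting cells, the non-sensory cells that hold the hair cells in place, were sorted as GFP-positive cells, and their RNA was amplified and sequenced. The gene that drives GFP and the strain are not given in the sources used here, nor whether replicates were separate animals. The p-values below therefore rest on the spread of these libraries, which may be technical.

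Planar cell polarity is the alignment of cells within the plane of an epithelium. Celsr proteins, large atypical cadherins, link neighbouring cells and carry the receptor Frizzled on one side of the junction and the membrane protein Vangl on the other. Dishevelled (Dvl) proteins bind Frizzled in the cytoplasm. In the cochlea the core proteins lie asymmetrically at the contacts between hair cells and supporting cells, and loss of Vangl2, of Celsr1 or of Fzd3 together with Fzd6 is known to misorient the hair bundles. The pathway acts through the placement of its proteins, which RNA levels do not report.

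The libraries held a total expected count of 2724381 to 5974230. Nuclear protein-coding genes took 62.5% to 63.4% of it with DMSO, against 78.2% to 93.4% under treatment. In the deposited tables, effective length was shorter than length by 49 bases (median) in DMSO and by 208.21 to 212.69 bases with either inhibitor. The DMSO libraries were thus quantified with another read layout, and the layout and the treatment cannot be told apart in any comparison with DMSO. TSA and GSK-343 share a layout, so their comparison does not carry this difference. It is given for each core gene, in places after the comparisons with DMSO. All 16 supporting cell markers had counts in every library, summing to 14349 and 16949 CPM in DMSO. CPM here and below are counts per 1000000 of a library total that is multiplied by edgeR's TMM factor. The sum was 19737 to 23796 CPM with GSK-343, and TSA libraries had 9127 and 10575 CPM. Per library total without that factor, the DMSO sums were 10742 and 12632 and those of GSK-343 were 20678 to 24225. The TSA sums, 10501 and 13860, then overlapped DMSO. S100a1 and Tectb make up much of these sums. Their means were 551 and 6124 CPM in DMSO, 6141 and 8370 CPM with GSK-343, and 1249 and 4862 CPM with TSA. By gene, 3 of the 16 markers were called as higher and 4 as lower with GSK-343 against DMSO, as given below. The 12 hair cell markers summed to 309.7 and 380.5 CPM in DMSO and to 469 to 1192 CPM with GSK-343, and in the TSA libraries to 640.3 and 2108 CPM. The 8 mesenchyme markers summed to 75.7 to 179.3 CPM, and the blood vessel and immune lists to 20.3 CPM or less in every library. RNA of sorted bulk cells does not tell fewer cells of a type from less RNA per cell, for any gene here.

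All 10 genes passed the low-count filter that left 14907 genes. A gene is called where the Benjamini-Hochberg adjusted p of edgeR's quasi-likelihood test over all 14907 genes was under 0.05. Between TSA and GSK-343 the test called 9.56% of all genes, 4.56% as higher and 5.00% as lower with TSA. Of the core genes it called Celsr3 as higher and Celsr2 as lower. Between TSA and DMSO it called 28.5% of all genes, 12.8% as higher and 15.7% as lower. There Celsr3 rose, and 5 core genes fell: Vangl1, Vangl2, Celsr2, Fzd3 and Dvl3. Between GSK-343 and DMSO it called 39.0% of all genes, 17.7% as higher and 21.3% as lower. Dvl2 rose there, and 4 core genes fell: Vangl2, Celsr2, Fzd3 and Dvl3. With total count scaling in place of TMM, the share of higher genes among all called genes was 71.5%, 74.5% and 63.1% in the 3 comparisons, against 47.7%, 45% and 45.4%. On the TPM scale, described below for Celsr2, limma called none of the 10 genes between TSA and GSK-343 (2, Celsr3 and Fzd3, had an unadjusted p under 0.05) and none between TSA and DMSO (0 had one). Between GSK-343 and DMSO it called Dvl2 as higher and Fzd3 as lower. Of all 19336 genes in that fit, limma on log2(TPM + 1) called 1007, 7530 and 7286 in these 3 comparisons. No test of the core genes as a group was made. Their median log2 fold change was −0.43 between TSA and GSK-343, −0.83 between TSA and DMSO and −0.10 between GSK-343 and DMSO, beside medians over all tested genes of 0, −0.05 and −0.04. The 3 comparisons share libraries and are not independent of each other.

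**Figure D1:**
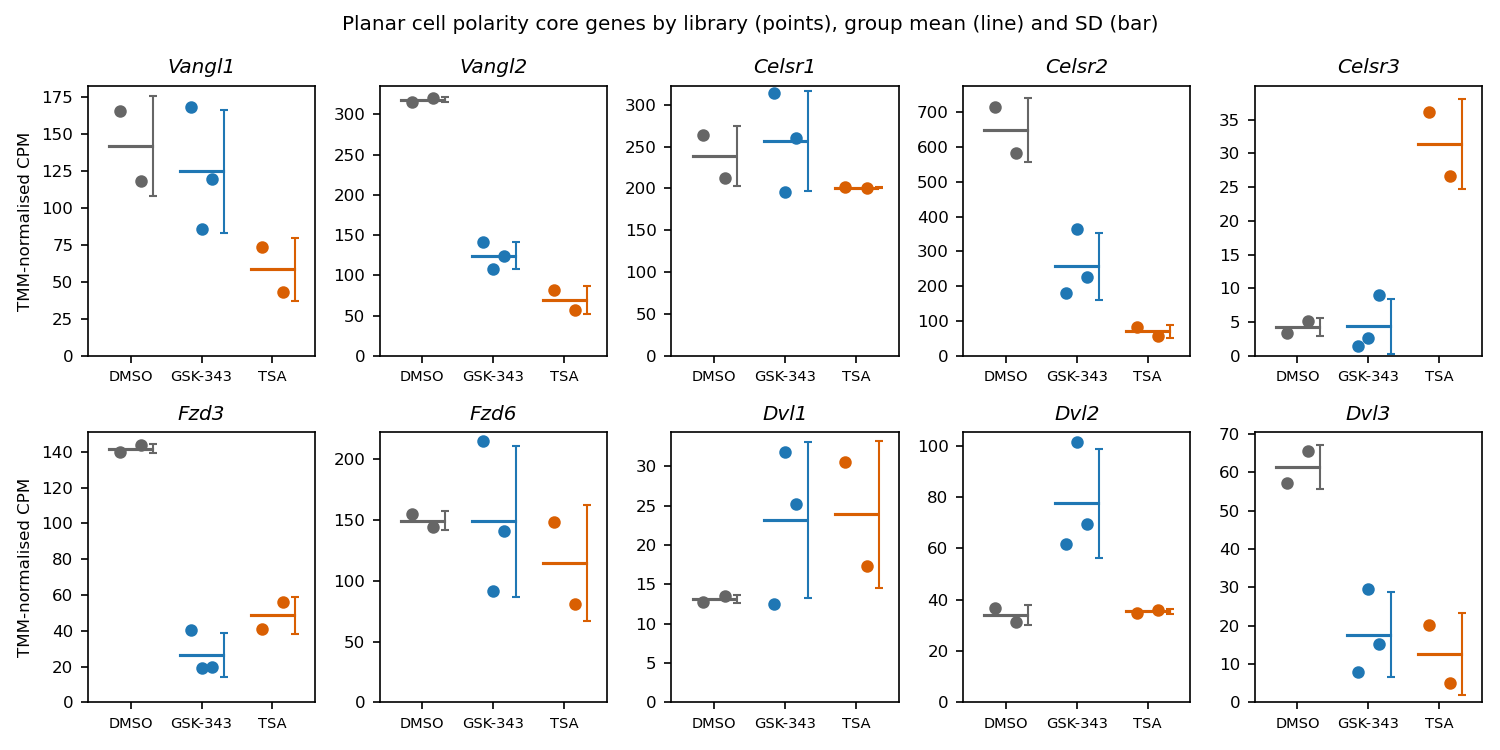
TMM-normalised CPM (vertical axes, linear, each from 0) of the 10 core genes in the DMSO (n = 2), GSK-343 (n = 3) and TSA (n = 2) libraries. Points are libraries, lines group means and bars SD; both TSA points of Celsr3 (26.7 and 36.1) lie above all others, and both TSA points of Celsr2 (57.5 and 82.9) below all others.

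Celsr2 and Celsr3 moved in opposite directions with TSA. Celsr2 (ENSMUSG00000068740.13, chr3:108390851-108415552, minus strand; positions here and below are from GENCODE M21 on GRCm38, the assembly of mm10) and Celsr3 (ENSMUSG00000023473.11, chr9:108826320-108852969, plus strand) carry the contrast with TSA, so the 250 bases before their RefSeq starts (GRCm38.p6) are shown, 5′ to 3′ on the strand of the gene with CpG dinucleotides in capitals. The Celsr2 stretch is chr3:108415580-108415829 and the Celsr3 stretch chr9:108825795-108826044, and neither overlaps an annotated exon.
Celsr2: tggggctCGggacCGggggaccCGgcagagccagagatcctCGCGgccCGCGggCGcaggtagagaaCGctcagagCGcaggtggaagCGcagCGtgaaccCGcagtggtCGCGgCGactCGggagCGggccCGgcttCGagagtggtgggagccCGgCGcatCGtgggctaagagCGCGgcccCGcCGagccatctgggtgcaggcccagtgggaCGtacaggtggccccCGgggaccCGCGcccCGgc
Celsr3: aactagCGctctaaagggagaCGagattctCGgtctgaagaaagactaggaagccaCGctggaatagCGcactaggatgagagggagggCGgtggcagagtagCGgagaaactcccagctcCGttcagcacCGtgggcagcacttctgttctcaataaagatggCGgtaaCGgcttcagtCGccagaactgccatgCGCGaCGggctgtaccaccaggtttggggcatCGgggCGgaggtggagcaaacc
Celsr2 holds 32 CpG in this window, a number reached by 4.58% of 32851 RefSeq windows of the same length, whose median is 6. Celsr3 holds 17, reached by 23.5%. Searched on both strands, the GC box GGGCGG occurred in 0 places before Celsr2 and in 2 before Celsr3, and in 32.7% of all windows at least once. The E-box CACGTG (6.02% of windows), TATAAA (12.4%) and CCAAT (33.8%) were in neither window. Of the other members with a RefSeq window, Vangl2 had 18 CpG, Dvl1 26, Dvl2 13 and Dvl3 21, so all 6 lay above the median. The windows of Vangl2 and Dvl3 each overlap 1 annotated exon, and that of Vangl2 lies inside the gene as annotated. CACGTG was found 3 times before Dvl2 and before none of the other 5.

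Celsr2, known from the orientation of motile cilia in other epithelia, stood at 714 and 583 CPM in DMSO, 180.2, 365 and 228 CPM with GSK-343, and 82.9 and 57.5 CPM with TSA. The groups formed 3 steps that did not overlap. Celsr2 was 3.67-fold lower with TSA than with GSK-343 (−1.88 ± 0.38 SE on the log2 scale, adjusted p = 0.0155), a call that was lost without TSA replicate 2 (−1.65, adjusted p = 0.103). Against DMSO it fell 9.24-fold with TSA (−3.21 ± 0.42, adjusted p = 4.68e-04) and 2.52-fold with GSK-343 (−1.33 ± 0.35, adjusted p = 0.0099). The fall with TSA kept its call without any 1 library, whereas that with GSK-343 lost it without DMSO replicate 1 (adjusted p = 0.0788) and when libraries were scaled by their total count (−0.86, adjusted p = 0.0814).

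Per length, the level of Celsr2 with GSK-343 was not below that in DMSO in every library. In transcripts per 1000000 (TPM), which divide by the transcript length that the quantification estimated, Celsr2 stood at 231 and 192 in DMSO, 153, 625 and 186 with GSK-343, and 127 and 86.9 with TSA. The estimated length was 3530 and 3115 bases in DMSO, 2517, 1244 and 2224 with GSK-343, and 1836 and 1589 with TSA, although the longest annotated transcript has 10598 bases. GSK-343 replicate 2 thus combined the shortest length with the highest TPM. With limma on log2(TPM + 1) the change of Celsr2 was 0.31 for GSK-343 against DMSO (adjusted p = 0.723), the opposite sign to the counts. The change was −0.99 for TSA against DMSO (adjusted p = 0.277) and −1.30 for TSA against GSK-343 (adjusted p = 0.249). A count test takes no account of such shifts between the transcripts of a gene.

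Celsr3, the family member best known from axon guidance, had few counts outside the TSA group. It stood at 3.37 and 5.21 CPM in DMSO, 1.42, 2.68 and 9.02 CPM with GSK-343, and 36.1 and 26.7 CPM with TSA. Both TSA libraries lay above all 5 others, and the DMSO and GSK-343 libraries overlapped. Celsr3 rose 7.07-fold with TSA against GSK-343 (log2 fold change 2.82 ± 0.73, adjusted p = 0.0330) and 7.29-fold against DMSO (2.87 ± 0.84, adjusted p = 0.0242). It rests on 310 counts over all libraries, of which 5 to 39 lie in each GSK-343 library. The call against GSK-343 was lost without GSK-343 replicate 2 (adjusted p = 0.0912), TSA replicate 1 (0.1) or TSA replicate 2 (0.0968), at changes of 2.56 to 3.01. Against DMSO it missed the threshold without TSA replicate 1 (0.0862) or either DMSO library (0.1 for replicate 1 and 0.0570 for replicate 2), at changes of 2.61 to 3.22.

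Neuron markers were measured beside Celsr3. The 10 neuron markers summed to 62.8 and 77.5 CPM in DMSO and 38.9 to 83.9 CPM with GSK-343, against 501 and 524 CPM with TSA. In each DMSO and GSK-343 library 8 of the 10 had counts, and with TSA all 10. Prph was at 0 in all 5 DMSO and GSK-343 libraries, where in each 1 of Elavl3, Nefl and Gap43 was at 0 too. Of the 8 neuron markers tested, 3 were called, all higher, between TSA and GSK-343: Stmn2, Snap25 and Map2. Between TSA and DMSO, 4 were called, all higher: these 3 and the neurofilament gene Nefl. Among all tested genes, 4.56% and 12.8% were called as higher in these comparisons. Tubb3 had changes of −0.09 ± 1.09 and −0.50 ± 1.18 in these comparisons and was called in neither. Between GSK-343 and DMSO, where Celsr3 was not called, Snap25 (1.98 ± 0.62) and Nefl (4.25 ± 1.01) rose and Stmn2 (−2.53 ± 0.43) fell. The 8 glial markers summed to 327 and 377 CPM in DMSO and 501.6 to 769.8 CPM with GSK-343, against 190.6 and 226.9 CPM with TSA. Erbb3 alone had means of 111.5, 489.5 and 142.5 CPM in DMSO, GSK-343 and TSA. The glial markers went both ways with GSK-343 against DMSO. Of 6 tested, Erbb3 (2.13 ± 0.34) and Mbp (3.23 ± 0.58) were called as higher and Sox10 (−1.79 ± 0.48) as lower. The part of neuronal RNA in the result for Celsr3 was not tested.

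Celsr1 (ENSMUSG00000016028.9, chr15:85898929-86033777, minus strand), the family member whose loss misorients hair bundles, was in none of the calls. It stood at 264 and 213 CPM in DMSO, 314.5, 195 and 260 CPM with GSK-343, and 201.4 and 200.3 CPM with TSA. Both TSA libraries lay below the DMSO libraries and within the range of GSK-343. With TMM the log2 fold change was −0.35 ± 0.31 for TSA against GSK-343 (adjusted p = 0.494). It was −0.25 ± 0.34 for TSA against DMSO (0.616) and 0.11 ± 0.31 between GSK-343 and DMSO (0.812).

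The levels of Vangl2 (ENSMUSG00000026556.15, chr1:172000960-172028444, minus strand), whose loss is the classical cause of misoriented hair bundles, were lower in both treated groups. Vangl2 stood at 316 and 321 CPM in DMSO, 141, 108 and 125 CPM with GSK-343, and 81.5 and 56.6 CPM with TSA. The groups did not overlap, and the DMSO libraries differed by little. Vangl2 fell 4.61-fold with TSA against DMSO (log2 fold change −2.20 ± 0.35, adjusted p = 0.00125) and 2.55-fold with GSK-343 against DMSO (−1.35 ± 0.30, adjusted p = 0.00398). Both calls held without any 1 library. Between TSA and GSK-343 the change was −0.85 ± 0.31 (adjusted p = 0.0987), and −0.97 (adjusted p = 0.0458) once a trend on GC content and length had been removed from each library.

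On the TPM scale Vangl2 was called in neither comparison with DMSO, with changes of −0.73 (limma on log2(TPM + 1), adjusted p = 0.239) for TSA and −0.23 (adjusted p = 0.686) for GSK-343. TPM shifts the median of all genes to 0.67 and 0.24 in these comparisons. Vangl2 lay below that median in both, a difference that was not tested.

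Vangl1 (ENSMUSG00000027860.15, chr3:102153583-102204693, minus strand), the paralogue that partly shares the role of Vangl2, separated the TSA libraries alone. It stood at 166 and 118 CPM in DMSO, 169, 86.2 and 120 CPM with GSK-343, and 73.7 and 43.4 CPM with TSA. The DMSO and GSK-343 libraries overlapped, and both TSA libraries lay below them. Vangl1 fell 2.43-fold with TSA against DMSO (log2 fold change −1.28 ± 0.42, adjusted p = 0.0371). This call went once TSA replicate 2 (adjusted p = 0.281), DMSO replicate 1 (0.193) or DMSO replicate 2 (0.0597) was left out, and with scaling by total count (−0.55, 0.339). Against GSK-343 the change was −1.09 ± 0.39 (adjusted p = 0.0903), and −1.55 (adjusted p = 0.0227) with the GC content and length trend removed. Between GSK-343 and DMSO it was −0.19 ± 0.37 (adjusted p = 0.72).

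Supporting cell markers were measured beside Celsr2 and the Vangl genes. Of 16 tested, 5 fell between TSA and GSK-343 (Hes5, Hey1, S100a1, Otoa and Epyc) with a median change of −0.69. With TSA against DMSO 6 fell (Sox2, Sox9, Hey1, Jag1, Prox1 and Cdkn1b), with a median of −1.01. With GSK-343 against DMSO 4 fell (Hes1, Jag1, Prox1 and Cdkn1b), 3 rose (Hes5, S100a1 and Epyc), and the median was 0.00. Among all tested genes, 5.00%, 15.7% and 21.3% were called as lower in these 3 comparisons. Hair cell markers were higher in both treated groups than in DMSO, with 9 of 12 called as higher with TSA and 7 with GSK-343. Among all tested genes, 12.8% and 17.7% were called as higher there. The part of these markers in the results for the core genes was not tested.

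**Figure D2:**
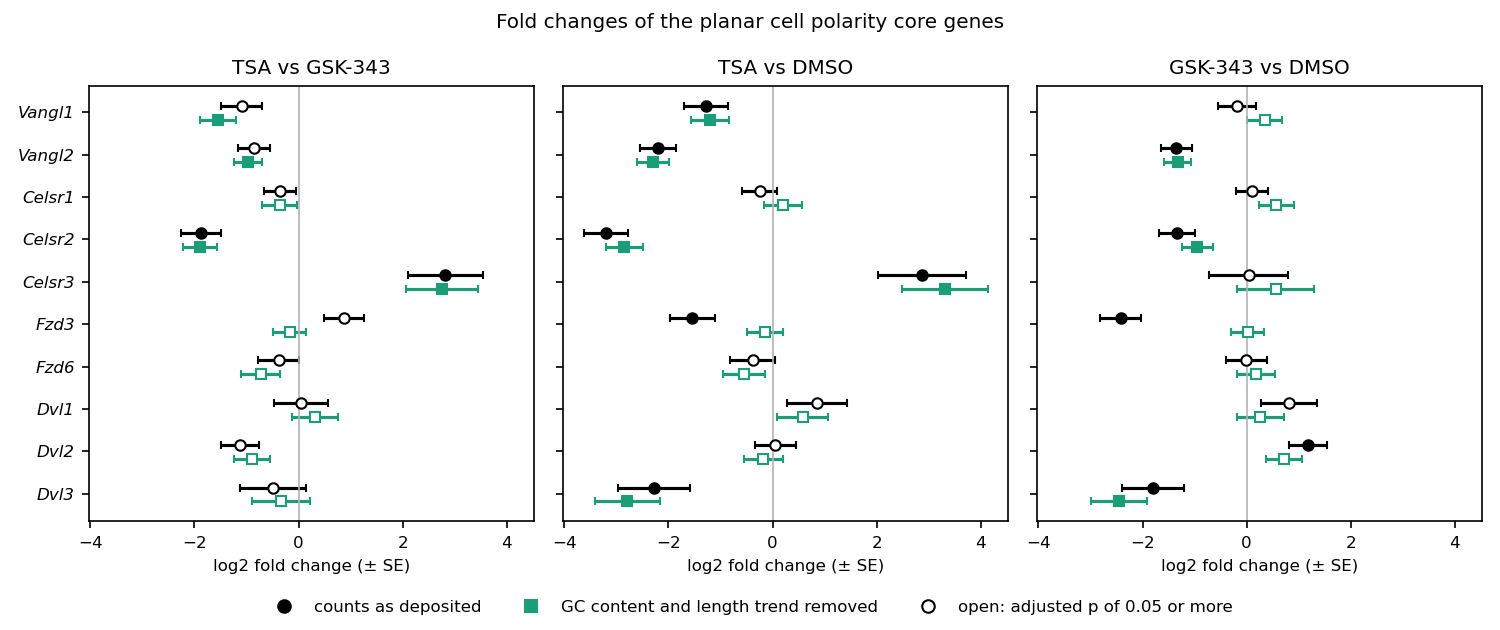
Log2 fold changes ± SE of the 10 core genes in the 3 comparisons, from the counts as deposited (black circles) and after a spline on GC content and length was taken out of each library (green squares); filled symbols have an adjusted p under 0.05. Celsr2 and Celsr3 keep their sides of 0 for TSA against GSK-343 under both, while Fzd3 moves from −2.42 to 0.02 for GSK-343 against DMSO.

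The Frizzled receptors of the core pathway behaved unequally. Fzd3 (ENSMUSG00000007989.6, chr14:65192449-65262463, minus strand) stood at 140.2 and 144 CPM in DMSO, 40.5, 19.2 and 19.9 CPM with GSK-343, and 41.2 and 56.0 CPM with TSA. Every treated library lay below both DMSO libraries, and the TSA libraries lay just above the highest GSK-343 library. Fzd3 fell 5.36-fold with GSK-343 against DMSO (log2 fold change −2.42 ± 0.39, adjusted p = 7.49e-04) and 2.92-fold with TSA (−1.55 ± 0.43, adjusted p = 0.0197). The first call held without any 1 library, and the second was lost without any of the 4 DMSO and TSA libraries (adjusted p = 0.0557 to 0.132). Between TSA and GSK-343 the change was 0.88 ± 0.39 (adjusted p = 0.166), and 1.31 (adjusted p = 0.0287) without GSK-343 replicate 1.

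The calls of Fzd3 did not hold under a correction for GC content and length. Its longest transcript has 12734 bases and a GC content of 40.3%, the longest and the lowest of the 10 genes, whose other members range from 47.4% to 59.3%. The correction used the length and GC content of this longest annotated transcript, whereas the quantification gave Fzd3 a length of 4053 to 4157 bases in these libraries. With the GC content and length trend removed, the change was 0.02 (adjusted p = 0.961) for GSK-343 against DMSO and −0.15 (adjusted p = 0.773) for TSA against DMSO. For TSA against GSK-343 it was −0.17 (adjusted p = 0.789). On the TPM scale, which uses the estimated length, limma kept the call of Fzd3 as lower for GSK-343 against DMSO. The read layout differs between DMSO and both treated groups as well, and its part in the results against DMSO was not tested. TSA and GSK-343 share a layout.

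Fzd6 (ENSMUSG00000022297.14, chr15:39006034-39038188, plus strand), which acts together with Fzd3 in hair bundle orientation, stood at 155 and 144 CPM in DMSO, 214, 91.5 and 141 CPM with GSK-343, and 148 and 81.0 CPM with TSA. All groups overlapped, and the spread within the treated groups exceeded the differences between means. The log2 fold change was −0.38 ± 0.40 for TSA against GSK-343 (adjusted p = 0.571), −0.38 ± 0.43 for TSA against DMSO (0.534) and −0.01 ± 0.39 between GSK-343 and DMSO (0.992). Per length, Fzd3 made up 47.5% and 50.1% of the summed TPM of both receptors in DMSO and 12.2% to 17.1% with GSK-343. Its share was 21.4% and 40.4% with TSA.

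The Dishevelled genes, which encode the cytoplasmic partners of Frizzled in this and in the canonical Wnt pathway, differed among themselves. Dvl3 (ENSMUSG00000003233.11, chr16:20516982-20534010, plus strand) stood at 57.3 and 65.4 CPM in DMSO, 7.93, 29.7 and 15.3 CPM with GSK-343, and 20.2 and 4.99 CPM with TSA. Both DMSO libraries lay above all treated libraries, and the treated groups overlapped. Dvl3 fell 4.86-fold with TSA (log2 fold change −2.28 ± 0.70, adjusted p = 0.0284) and 3.47-fold with GSK-343 (−1.79 ± 0.60, adjusted p = 0.0312) against DMSO. The first call was lost without TSA replicate 2 (adjusted p = 0.171), DMSO replicate 1 (0.0708) or DMSO replicate 2 (0.0789). The second was lost without DMSO replicate 1 (0.0743) or replicate 2 (0.1), and without GSK-343 replicate 1 (0.0662) or replicate 3 (0.0790). With scaling by total count they had adjusted p = 0.13 and 0.121. Between TSA and GSK-343 the change was −0.49 ± 0.63 (adjusted p = 0.658).

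Dvl2 (ENSMUSG00000020888.16, chr11:70000595-70012301, plus strand) was the core gene that rose with GSK-343. It stood at 36.8 and 31.3 CPM in DMSO, 61.5, 101.5 and 69.4 CPM with GSK-343, and 34.7 and 36.1 CPM with TSA. All 3 GSK-343 libraries lay above the other 4, and the TSA libraries lay within the DMSO range. Dvl2 rose 2.27-fold with GSK-343 against DMSO (log2 fold change 1.18 ± 0.37, adjusted p = 0.0225). The call was lost without GSK-343 replicate 2 (adjusted p = 0.0922), DMSO replicate 1 (0.0645) or DMSO replicate 2 (0.114), and with the GC content and length trend removed (0.72, adjusted p = 0.12). It was kept by limma on log2(TPM + 1) (adjusted p = 0.0153). For TSA against GSK-343 the change was −1.13 ± 0.37 (adjusted p = 0.0689), and −1.27 (0.0404) without GSK-343 replicate 1. For TSA against DMSO it was 0.06 ± 0.39 (adjusted p = 0.933).

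The reads of Dvl2 carry an uncertainty of their own. Its end overlaps that of Acadvl, a mitochondrial fatty acid dehydrogenase on the opposite strand, by 2119 bases, and whether counting used the strand is not given in the sources used here. Acadvl stood at 40.7 and 53.4 CPM in DMSO, 49.9, 57.2 and 30.3 CPM with GSK-343, and 30.0 and 46.3 CPM with TSA. For GSK-343 against DMSO its log2 fold change was −0.04 ± 0.40 (adjusted p = 0.947), and its levels in these libraries overlapped between the groups. The overlaps of other core genes with antisense or neighbouring genes were of at most 785 bases, and those genes had at most 18 counts in any library.

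Dvl1 (ENSMUSG00000029071.16, chr4:155847402-155859303, plus strand) stood at 12.8 and 13.6 CPM in DMSO, 12.5, 31.9 and 25.2 CPM with GSK-343, and 30.5 and 17.3 CPM with TSA. Both TSA libraries lay above DMSO, and GSK-343 replicate 1 lay below it. The log2 fold change was 0.86 ± 0.58 between TSA and DMSO (adjusted p = 0.285), 0.82 ± 0.54 between GSK-343 and DMSO (0.245) and 0.04 ± 0.52 for TSA against GSK-343 (0.983). With 561 counts over all libraries, Dvl1 gives wide errors.

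Levels per length put the genes in an order. In DMSO Celsr2 led with a mean of 211 TPM, followed by Vangl2 at 60.7, Vangl1 at 43.6, Fzd6 at 39.6, Fzd3 at 37.6, Dvl3 at 25.5, Celsr1 at 23.3, Dvl2 at 19.8, Dvl1 at 6.18 and Celsr3 at 2.04 TPM. The libraries of Vangl1 and Fzd6 overlapped, as did those of Fzd6 and Fzd3, of Dvl3 and Celsr1, and of Celsr1 and Dvl2. With GSK-343 Celsr2 was again first at 321 ± 264 TPM (SD, n = 3). Fzd6, Vangl2, Dvl2, Vangl1 and Celsr1 followed between 70.0 and 42.7 TPM, each overlapping the next, and Dvl3, Dvl1 and Fzd3 between 13.0 and 12.3 TPM. Celsr3 was last at 0.657 TPM. With TSA Celsr2 had 107 ± 28.7 TPM and overlapped Fzd6 at 69.7 ± 36.8 TPM (SD, n = 2). The next steps from Celsr1 at 42.5 to Fzd3 at 27.8 TPM all overlapped, and Dvl1, Dvl3 and Celsr3 closed the order at 17.4, 12.4 and 6.68 TPM.

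Within the families the makeup differed between libraries. Celsr2 held 89.4% and 89.2% of the summed TPM of the Celsr genes in DMSO, 72.9%, 95.1% and 82.0% with GSK-343, and 70.1% and 66.4% with TSA. Celsr3 held 4.38% and 4.13% with TSA and 1.74% or less elsewhere. Dvl3 held 49.7% and 49.4% of the Dvl total in DMSO but 9.71% to 25.9% of it under treatment, where Dvl2 took 44.6% to 75.9%. For the Vangl genes the share of Vangl2 was 60.8% and 55.6% in DMSO, 38%, 63.7% and 57.0% with GSK-343, and 56.4% and 61.2% with TSA, with no separation of the groups. Every share within the Celsr, Dvl and Vangl families also depends on the estimated lengths of Vangl1, Vangl2, Celsr2, Celsr3, Dvl1 and Dvl2, which varied 1.64-fold to 7.96-fold over the libraries. The estimated lengths of Celsr1, Fzd3, Fzd6 and Dvl3 varied at most 1.03-fold.

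**Figure D3:**
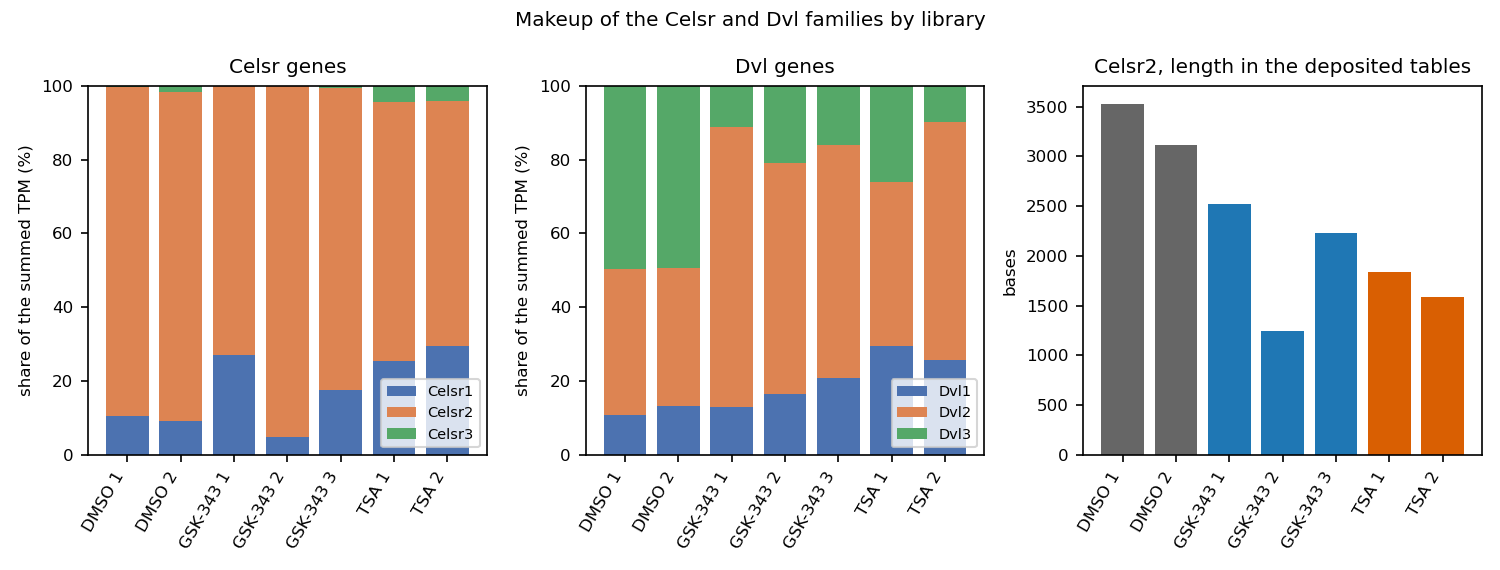
Shares (%) of each gene in the summed TPM of the Celsr genes (left) and of the Dvl genes (middle) in each library, and the length in bases that the quantification gave Celsr2 (right). The green Celsr3 share is 4.38% and 4.13% in the TSA libraries, the green Dvl3 share is 49.7% and 49.4% in DMSO and 25.9% or less elsewhere, and the Celsr2 length falls from 3530 bases to as little as 1244.

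Summed over the 10 genes, TMM-normalised CPM came to 1865 and 1639 in DMSO, 1143, 1032 and 1012 with GSK-343, and 750.3 and 580 with TSA, in 3 steps without overlap. Celsr2 alone gave 714 and 583 CPM in DMSO, 180.2, 365 and 228 with GSK-343, and 82.9 and 57.5 with TSA. Of the 10 genes, only Celsr2 and Vangl2 formed these steps in this order by themselves. Summed TPM came to 496 and 444 in DMSO, 528, 905 and 442 with GSK-343, and 486 and 285 with TSA, and there the groups overlapped.

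Genes whose levels ran most closely with a called core gene were ranked by the root mean square difference of centred log2 CPM over the 7 libraries, among 9694 genes. For Celsr2 they were Ntn4, a laminin-related basement membrane protein (0.15), and Raver1, an RNA-binding protein (0.155), beside a spread of Celsr2 itself of 1.36 (SD of log2 CPM). For Celsr3 the nearest, Cfap69, a protein of motile cilia and flagella (0.423), and Kyat3, an aminotransferase (0.602), were farther off, with a spread of 1.66. Chsy1, a chondroitin synthase (0.134), and Papola, a poly(A) polymerase (0.17), ran with Vangl2, and the sodium leak channel gene Nalcn (0.115) and Nr2c2ap (0.143) with Vangl1. Fzd3 was nearest to Arhgap5, a GTPase-activating protein (0.113), and Zbtb44 (0.145). Dvl2 was near to Drg2 (0.157), and Dvl3 nearest to Plppr3 (0.18) and Ccdc9 (0.184). These distances are descriptions and carry no test.

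The other genes of the pathway are described by lists chosen for their roles. Their counts stand beside the shares of all tested genes that were called. These shares were 9.56% between TSA and GSK-343, 28.5% between TSA and DMSO and 39.0% between GSK-343 and DMSO. No list was tested as a group. Of 12 ligands and co-receptors tested, 1 was called between TSA and GSK-343, namely Wnt7a, a Wnt ligand of the cochlear epithelium. Wnt7a stood at 219 and 286 CPM in DMSO, 1515, 1037 and 1418 CPM with GSK-343, and 250.4 and 110.3 CPM with TSA. Its GSK-343 libraries lay far above all others. Wnt7a rose with GSK-343 against DMSO (log2 fold change 2.39 ± 0.41, adjusted p = 0.00115) and was lower with TSA than with GSK-343 (−2.87 ± 0.43, adjusted p = 0.0057). Against DMSO, Wls, the carrier of secreted Wnts, rose in both groups (1.52 ± 0.42 with TSA and 1.53 ± 0.39 with GSK-343), and Wnt5a, the ligand best known in planar polarity, fell in both (−1.98 ± 0.46 and −1.92 ± 0.40). The co-receptor Ryk rose with TSA (1.83 ± 0.43) and Wnt7b with GSK-343 (1.11 ± 0.41), and the glypican Gpc6 fell with TSA (−1.50 ± 0.50). Their list medians were 0.28 between TSA and GSK-343, 0.60 between TSA and DMSO and 0.66 between GSK-343 and DMSO.

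Of 15 further core and accessory genes tested, 1 rose and 2 fell between TSA and GSK-343, with a median of −0.33. These were Prickle2, the cytoplasmic partner of Vangl (1.54 ± 0.38), Gipc1, an adaptor that binds Vangl2 (−2.06 ± 0.38), and Ap2m1, a subunit of the clathrin adaptor (−1.42 ± 0.35). With TSA against DMSO Ankrd6 rose (1.20 ± 0.35), and 3 fell: Sec24b, the coat protein that exports Vangl2 from the endoplasmic reticulum (−1.98 ± 0.41), Fzd1 (−2.41 ± 0.41) and Fzd2 (−2.32 ± 0.48). The median was −0.05. With GSK-343 against DMSO 3 rose, namely Ap2m1 (1.71 ± 0.36), Gipc1 (1.68 ± 0.37) and Prickle1 (1.35 ± 0.47), and 5 fell, namely Sec24b (−2.09 ± 0.36), Fzd7 (−1.68 ± 0.34), Fzd2 (−1.59 ± 0.41), Fzd1 (−1.31 ± 0.35) and Smurf2 (−1.0 ± 0.31), with a median of −0.62.

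Of 14 effectors that link the pathway to the cytoskeleton and the cilium, 1 was called between TSA and GSK-343, the ciliary gene Invs (1.77 ± 0.48), and the median was 0.06. With TSA against DMSO 2 fell, the formin gene Daam2 (−2.82 ± 0.58) and the kinase gene Rock1 (−1.14 ± 0.36), with a median of −0.30. With GSK-343 against DMSO the GTPase genes Cdc42 (1.20 ± 0.32) and Rac1 (0.88 ± 0.31) rose, Rock1 (−2.16 ± 0.33), Daam2 (−1.65 ± 0.48) and the myosin gene Myh9 (−1.41 ± 0.43) fell, and the median was −0.42. Rock1 lost both calls once the GC content and length trend was removed (adjusted p = 0.449 and 0.27).

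The Fat and Dachsous cadherins form another polarity system. Fat1 stood at 452 and 302 CPM in DMSO, 32.6, 39.2 and 38.2 CPM with GSK-343, and 82.1 and 104 CPM with TSA, in 3 groups without overlap. It fell with GSK-343 (−3.36 ± 0.32 on the log2 scale, adjusted p = 3.06e-05) and with TSA (−2.02 ± 0.35, adjusted p = 0.00212) against DMSO and was higher with TSA than with GSK-343 (1.35 ± 0.31, adjusted p = 0.0233), a call lost with the GC content and length trend removed (adjusted p = 0.0961). Fat3 and Fat4 fell in both groups against DMSO, Dchs1 fell with TSA (−1.62 ± 0.41) and Dchs2 with GSK-343, where its mean was 0.154 CPM against 4.09 in DMSO. Fat4 lost both calls with that trend removed, and Fat3 the one for TSA. Fjx1 rose with GSK-343 against DMSO (2.85 ± 0.91), and Lix1l was higher with TSA than with GSK-343 (2.75 ± 0.61). The medians of the 7 genes were 1.14 between TSA and GSK-343, and against DMSO −1.62 with TSA and −1.83 with GSK-343.

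The genes that set the position of the kinocilium and the bundle within the hair cell formed the last list, with 15 tested. Between TSA and GSK-343 3 were called, all higher: Gpsm2 (1.51 ± 0.30), Gnai1 (2.83 ± 0.57) and Gnai3 (1.21 ± 0.35), the bare zone proteins of the hair cell apex. With TSA against DMSO 6 rose and 2 fell. Emx2, the transcription factor that reverses bundle orientation, fell with TSA (−2.12 ± 0.38) and with GSK-343 (−1.31 ± 0.33), as did Ccdc88c (−2.48 ± 0.54 and −2.20 ± 0.47). Insc, Gnai1, Gnai3, Gpsm2 and Ift88 were among those that rose with TSA. In this order, their TSA means ± SD (n = 2) were 57.5 ± 67.2, 75.9 ± 43.6, 254 ± 89.1, 171.5 ± 14.9 and 64.9 ± 26.0 CPM. With GSK-343 against DMSO 3 rose, Insc and Gpsm2 among them, and 3 fell (Ccdc88c, Emx2 and Kif3a). The list medians were 0.50, 0.70 and 0.20 in the order of comparisons above. The hair cell markers given earlier were higher in both treated groups too, and their part was not tested. Prickle4, Wnt4, Wnt5b and Stk32a did not pass the low-count filter.

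**Figure D4:**
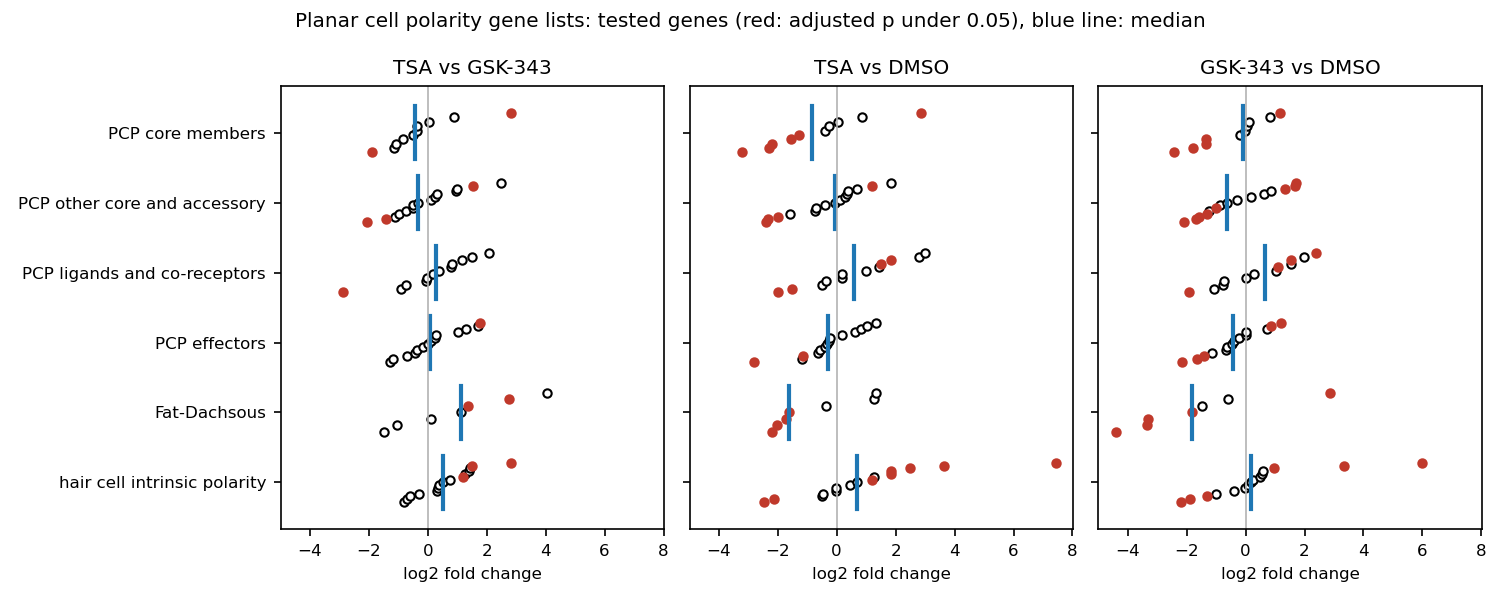
Log2 fold changes of every tested gene in the list of core genes and in the 5 other polarity lists, in the 3 comparisons; red points have an adjusted p under 0.05 and blue lines are list medians. The Fat and Dachsous genes have medians of −1.62 and −1.83 against DMSO and 1.14 between TSA and GSK-343, while the core genes lie on both sides of 0 in each comparison.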

How the data were processed

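Expression was measured by RNA sequencing in 7 libraries of sorted supporting cells (DMSO 2, GSK-343 3, TSA 2). Reads were aligned with STAR and quantified by RSEM (build mm10), and DESeq2 is also named, per the submitters' processing notes. The deposited expected counts are RSEM's estimates per gene and are not scaled between libraries, per the file headers. The TPM columns, also deposited by the authors, correct for effective length and have the same sum in every library, per the file headers. The annotation release is not given in the sources used here: of 48709 genes, 48349 matched GENCODE M21.

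Expected counts were rounded and tested with edgeR 4.0.16 in R 4.3.3: filterByExpr (14907 genes), TMM (factors 0.754 to 1.32), 1 model of group over all 7 libraries with 4 residual degrees of freedom, quasi-likelihood F tests and Benjamini-Hochberg adjustment with a threshold of 0.05. The SE was taken as the size of the log2 fold change divided by root F. The fit was tested on simulated data with known changes. Over the 3 comparisons it recovered 1.5% to 9.5% of 2-fold changes, 31.8% to 46.2% of 4-fold changes and 63% to 73.6% of 8-fold changes. It made 3 to 8 false calls. A gene that was not called may therefore still have changed. Replicates differed by more than sampling noise (chi-square per degree of freedom 15.8 to 47.3).

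Each result was recomputed with size factors of DESeq2, scaling by total count, no filter on low counts, a filter of 50 counts in 2 libraries, nuclear protein-coding genes alone, only the 2 groups compared, thinning to the smallest library, the replicate number as a block, a GC content and length trend (spline) removed per library, both together, the Wald test of DESeq2 1.42.0, limma 3.58.1 on log2(TPM + 1) and log2(TPM + 0.1) for genes of at least 1 TPM in 2 libraries, a threshold of 0.01, and each library left out. Robust dispersions were added after seeing the data. All 10 core genes were named. Of each pathway list the 4 genes with the smallest adjusted p among those called were named, and other called genes of a list were named after their values were seen where the count was small. The 2 most alike genes were named for each called core gene, among genes whose log2 CPM averaged 3 or more. Some genes that these rules would name are not reported here. Core genes, lists and markers were chosen with earlier results of these data known. RefSeq windows of GRCm38.p6 matched 6 of the 10 genes. Python 3.11.15 with pandas 2.3.3 and numpy 2.4.6 made the tables, and matplotlib 3.10.9 the figures.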

Additional observations from a re-analysis of the deposited data

How the results depend on the processing

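The 13 calls of core genes were recomputed under 22 alternatives each. Of 286 values, 218 kept direction and call, 64 lost the call and 4 reversed. The 36 calls of other pathway genes gave 792 values, of which 666 kept the call, 126 lost it and 0 reversed. The causes were not tested. Core genes called numbered 2 for TSA against GSK-343 and, against DMSO, 6 for TSA and 5 for GSK-343. They became 4, 5 and 3 with the GC content and length trend removed, 3 in each comparison with DMSO with total count scaling, 0, 0 and 2 with limma on log2(TPM + 1) as on log2(TPM + 0.1), and 0, 2 and 3 at a threshold of 0.01. Leaving out 1 library gave 0 to 4, 2 to 6 and 2 to 5. Beside the 0 of limma, unadjusted p values under 0.05 numbered 2 under either pseudocount for TSA against GSK-343, and 0 and 1 for TSA against DMSO, among the core genes, and the Wald test of DESeq2 made the same core gene calls as edgeR. Of all genes, 1425, 4252 and 5809 were called. The counts became 117, 1711 and 3434 at a threshold of 0.01, 619 and 6876 with limma on log2(TPM + 0.1) for TSA against GSK-343 and DMSO, 7530 with log2(TPM + 1) for TSA against DMSO, and 159 to 1878, 2058 to 5124 and 4668 to 6405 without 1 library. The Wald test called 2111, 4458 and 5907, and robust dispersions, added after seeing the data, 1598, 4359 and 5903. With total count scaling 1325, 5074 and 6133 of 14907 genes were called. With the GC content and length trend removed, 1329, 4367 and 5234 of 14870 were called. Total count scaling moved the median of all genes to 0.20, 0.65 and 0.42 and the share of higher calls from 47.7%, 45% and 45.4% to 71.5%, 74.5% and 63.1%. Removal of the GC content and length trend moved it to 33.6% for TSA against GSK-343.

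Replicate numbers are shared between groups, but the labels name no shared animal or batch. Same-numbered libraries had correlations of their deviations of −0.086 to 0.04, so the numbers were not taken to pair them. The replicate block called 841 genes for TSA against GSK-343, and lost the call of Dvl2 for GSK-343 against DMSO (adjusted p = 0.0581). Block and GC content and length trend together called 716 genes for TSA against GSK-343 and 3650 for GSK-343 against DMSO, 2 of them core genes. The replicate block turned Celsr3 for GSK-343 against DMSO to −1.05, and with the trend to −0.55. Block and trend together gave −0.22 for Fzd3 (TSA against GSK-343), 0.25 for Celsr1 and −0.21 for Dvl2 (TSA against DMSO), and 0.30 for Vangl1, 0.072 for Fzd3 and 0.071 for Fzd6 (GSK-343 with DMSO).

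Other signs that turned were these. For TSA against GSK-343 they were Dvl1 when thinned (−0.025), Fzd3 with the trend removed (−0.17) and Celsr1 on log2(TPM + 1) and log2(TPM + 0.1) (0.027 and 0.028). Without 1 library, Dvl1 ran from −0.43 to 0.38 and Dvl3 from −1.82 to 0.17. For TSA against DMSO, total count scaling gave 0.46 for Celsr1 and 0.35 for Fzd6, the trend removal 0.21 for Celsr1 and −0.18 for Dvl2, and TPM 0.85 and 0.88 for Celsr1 and 0.70 and 0.71 for Fzd6. Without 1 library, Dvl2 ran from −0.042 to 0.21 and Fzd6 from −0.83 to 0.027. For GSK-343 against DMSO, Celsr3 was −0.026 with DESeq2 size factors and −0.03 in the Wald test, −0.075 at 50 counts, −0.04 among nuclear coding genes, −0.45 when thinned, and −0.66 and −1.06 on TPM. Vangl1 was 0.28 with total count scaling, 0.35 with the trend removed and 0.07 and 0.069 on TPM. Fzd6 was 0.46 with total count scaling, 0.10 without a filter, 0.18 with the trend removed, and 0.70 and 0.71 on TPM. Celsr1 was −0.015 at 50 counts, Fzd3 0.024 with the trend removed, and Celsr2 0.31 on both TPM scales. Without 1 library, Vangl1 ran from −0.46 to 0.12, Celsr1 from −0.058 to 0.31, Celsr3 from −1.03 to 0.46 and Fzd6 from −0.36 to 0.25.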
